A study of Homo sapiens with 39 samples.

Results

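The set described here is 10 of the 60671 genes in the deposited gene table: aggrecan (ACAN), versican (VCAN), brevican (BCAN), neurocan (NCAN), biglycan (BGN), decorin (DCN), lumican (LUM), chondroitin sulfate proteoglycan 4 (CSPG4) and the link proteins HAPLN1 and HAPLN3. The members were chosen by name around a pattern seen in these same data: ACAN was lower than wild type in the A375 R1 clones and higher than wild type in the WM115 R1 clones. Its level in those clones and in wild-type cells was therefore used by the choice, and every comparison of ACAN with wild type is described with no test. The 39 RNA libraries come from A375 and WM115, both of which are cell lines established from human melanoma. Wild-type cells (WT) were compared with clones lacking R1 or R4, which are regulatory regions assigned to SOX10, the factor that maintains melanocytic identity. For A375 there were 4 libraries of WT cells. Its clones without R1, named 1.1 and 1.2, had 3 and 4, and its clones without R4, named 4.1 and 4.2, had 4 and 3. For WM115 there were again 4 of WT cells, then 5 and 3 for clones 1.1 and 1.2 and 3 each for clones 4.1, 4.2 and 1.3. The title of clone 1.3 numbers it like the R1 clones and its genotype label names R4, so it was kept as a group of its own. Each group of deleted cells is 1 clone, the libraries of a clone repeat that clone, and no label says whether they came from separate cultures, so p-values measure only the spread between libraries.

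Proteoglycans are core proteins that carry long sulfated sugar chains. Aggrecan, versican, brevican and neurocan are lecticans, which bind hyaluronan at one end and carry chondroitin sulfate in the middle, and the link proteins lock that binding in place. Aggrecan is the main proteoglycan of cartilage, versican is a lectican of many soft tissues and tumours, and brevican and neurocan belong mainly to the nervous system. Biglycan, decorin and lumican are small leucine-rich proteoglycans that bind collagen, and CSPG4 (NG2, the melanoma-associated chondroitin sulfate proteoglycan) is a membrane protein found on most melanoma cells.

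Several members lie beside each other in the genome, which the choice of members did not use. ACAN (ENSG00000157766, chromosome 15, 88803442 to 88875354, plus strand, GRCh38) ends 1.9 kb from HAPLN3 (ENSG00000140511, 88877288 to 88895626, minus strand). VCAN (ENSG00000038427, chromosome 5, 83471465 to 83582303, plus strand) lies 55.5 kb from HAPLN1 (ENSG00000145681, 83637805 to 83721613, minus strand). LUM (ENSG00000139329, chromosome 12, 91102629 to 91111831, minus strand) lies 28.7 kb from DCN (ENSG00000011465, 91140484 to 91183123, minus strand). BCAN (ENSG00000132692, chromosome 1, 156641390 to 156659532, plus strand) lies 15.7 kb from the link protein gene HAPLN2, and NCAN (ENSG00000130287, chromosome 19, 19211973 to 19252233, plus strand) lies 3.4 kb from HAPLN4. No other protein-coding gene lies between the genes of these 5 pairs in GENCODE 29. BGN (ENSG00000182492, chromosome X, 153494939 to 153509554, plus strand) and CSPG4 (ENSG00000173546, chromosome 15, 75674322 to 75712848, minus strand) have no member beside them.

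The windows around the start sites of ACAN, HAPLN1 and CSPG4 are shown because ACAN gives the set its pattern, and because HAPLN1 and CSPG4 are the members with the smallest p-values between R1 and R4 clones. Each window is 300 bases long, from 250 before the RefSeq start to 50 after it (GRCh38.p14), printed on the strand of the gene. Capitals mark the core letters bound by SOX proteins, searched as ACAAAG or ACAATG on both strands.
ACAN, chr15:88803186-88803485, plus strand: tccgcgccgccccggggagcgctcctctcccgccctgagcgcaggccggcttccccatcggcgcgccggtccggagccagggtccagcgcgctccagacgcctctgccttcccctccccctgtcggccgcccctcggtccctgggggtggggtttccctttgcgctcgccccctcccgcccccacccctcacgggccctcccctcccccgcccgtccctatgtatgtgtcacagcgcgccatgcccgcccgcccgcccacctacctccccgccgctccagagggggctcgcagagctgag
HAPLN1, chr5:83720806-83721105, minus strand: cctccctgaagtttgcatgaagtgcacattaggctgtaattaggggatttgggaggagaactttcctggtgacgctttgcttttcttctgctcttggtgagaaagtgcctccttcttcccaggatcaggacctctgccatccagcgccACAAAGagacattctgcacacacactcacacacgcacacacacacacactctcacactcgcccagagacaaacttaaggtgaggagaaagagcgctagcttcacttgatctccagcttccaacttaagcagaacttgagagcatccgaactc
CSPG4, chr15:75712799-75713098, minus strand: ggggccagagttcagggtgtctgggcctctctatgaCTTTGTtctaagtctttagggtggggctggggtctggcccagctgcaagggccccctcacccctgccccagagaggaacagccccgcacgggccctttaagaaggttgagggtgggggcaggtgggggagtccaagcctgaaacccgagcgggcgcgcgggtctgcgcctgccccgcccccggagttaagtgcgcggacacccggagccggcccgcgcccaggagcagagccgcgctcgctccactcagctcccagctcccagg

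The window of HAPLN1 holds ACAAAG on the strand of the gene, starting at position -102 from the start site, and that of CSPG4 holds it on the opposite strand, at position -214. The windows of ACAN, VCAN, BCAN, BGN and HAPLN3 hold neither form, which says only that these letters are not in these windows. NCAN, DCN and LUM were not matched in the promoter table. Of 35116 promoter windows of this length, 24.5% hold one of these forms. None of the 7 matched members has CACGTG or CATGTG, the core letters bound by MITF, which occur in 17.6% of windows. The bases G and C make up 77.0% of the ACAN window, 50% of that of HAPLN1 and 69.3% of that of CSPG4, against a median of 58.7% over all windows.

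Levels are given in TPM, a share of the library corrected for transcript length, in which genes can be compared with each other. Differences are on the log2(TPM + 1) scale, where the added 1 understates changes of genes near or under 1 TPM. A difference was called when its limma p-value, adjusted over all genes tested, was under 0.05 and it was at least 1 in size. Between 14084 and 16140 genes had at least 1 TPM in a library. SOX10 stood at 381 to 876 TPM in A375 and 9.56 to 553 TPM in WM115, where library 3 of R1 clone 1.2 had the lowest value and stood apart in other melanocytic genes too. TYR, a pigment enzyme that defines melanocytes, was listed at 0 in 17 of 18 A375 libraries and in 6 of 21 WM115 libraries. Mitochondrial genes took 0.968% to 4.92% of TPM in A375 and 4.71% to 19.4% in WM115. Ribosomal protein genes took 11.1% to 12.8% in WM115 WT libraries and 10.6% to 17.4% in the WM115 clones, so this share moved with the step from WT to clones in WM115. Its part in the results was not tested.

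Aggrecan RNA differed widely between the WT cells of the lines and moved in opposite directions in their R1 clones. A375 WT libraries had 11.5, 55.5, 13.5 and 7.8 TPM of ACAN. WM115 WT libraries had 0.749, 0.679, 0.458 and 0.195 TPM. Every A375 WT library was above every WM115 WT library, and library 2 of A375 WT stood far above the other 3. The same library had 25.4% of its TPM in ribosomal protein genes, the highest of the 4 WT libraries.

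In A375, R1 clone 1.1 had 5.45, 2.56 and 1.02 TPM of ACAN, and R1 clone 1.2 had 0.909, 0.943, 1.81 and 1.19 TPM. All 7 values lay below the lowest WT library. The log2 differences from WT were -2.27 in clone 1.1 and -2.99 in clone 1.2, and ran from -2.69 to -1.7 and from -3.31 to -2.42 with single libraries left out. In bulk RNA, fewer cells with ACAN and less ACAN per cell cannot be told apart. In WM115, R1 clone 1.1 had 24.3, 7.48, 15.0, 3.62 and 4.45 TPM, and R1 clone 1.2 had 13.5, 3.91 and 2.68 TPM. All 8 values lay above the highest WT library. The log2 differences were 2.69 and 2.09, with a range from 2.34 to 2.96 and from 1.5 to 2.49 with single libraries left out. With a pseudocount of 0.1 the WM115 differences were 3.90 and 3.21, and with the mitochondrial share, split into low and high, as a term that of clone 1.1 was 2.24.

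**Figure D1:**
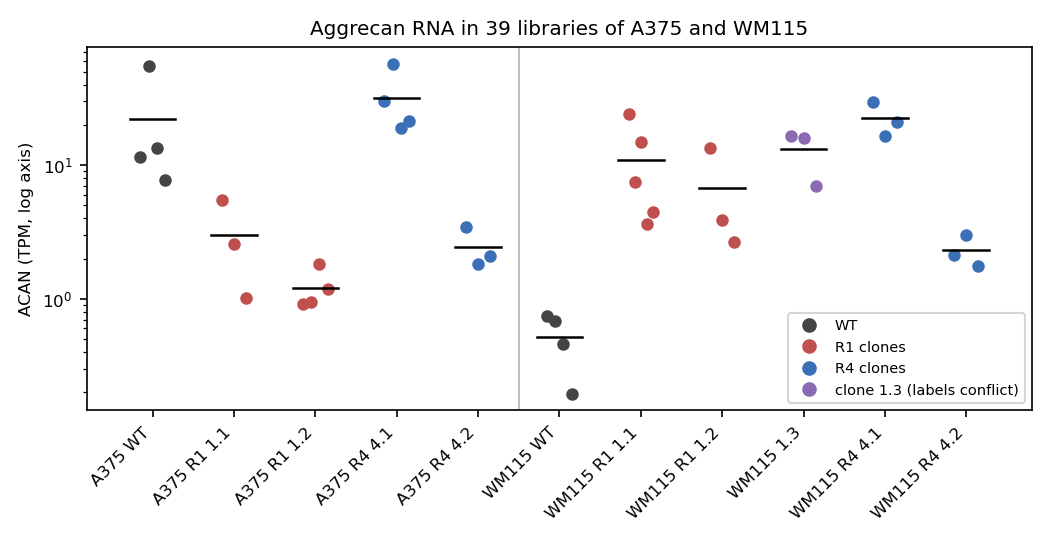
ACAN in TPM on a log axis, with 1 point per library and a bar at each group mean. In A375 the R1 clones and R4 clone 4.2 lie below WT, while in WM115 all clone libraries lie above the WT libraries, which reach 0.749 TPM.

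The R4 clones were not part of the pattern that chose the set, but their differences use the same WT libraries and are likewise a description. In A375, R4 clone 4.1 had 30.1, 57.6, 18.9 and 21.5 TPM of ACAN, overlapping WT, with a log2 difference of 0.79 that ran from 0.47 to 1.36 with single libraries left out. R4 clone 4.2 had 3.44, 1.81 and 2.08 TPM, all below WT, with a log2 difference of -2.36 and a range from -2.69 to -1.79.

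In WM115, R4 clone 4.1 had 29.7, 16.4 and 21.1 TPM of ACAN, a mean 43.0 times that of WT. The log2 difference was 3.92, and 3.7 to 4.11 with single libraries left out. R4 clone 4.2 had 2.13, 3.0 and 1.77 TPM, also all above WT, with a log2 difference of 1.12 (0.97 to 1.23) that was 2.03 with a pseudocount of 0.1. Clone 1.3, which is numbered like the R1 clones, had 16.6, 15.9 and 7.0 TPM and a log2 difference of 3.15 (2.95 to 3.52). All 17 WM115 clone libraries, of either region, lay above the highest WT library.

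Clones with the same region deleted differed from each other. These differences use no WT value, though the fit shares its spread with WT. They were added after the values had been seen, so the p-values below are a description and no independent support. ACAN was higher in R4 clone 4.1 than in R4 clone 4.2 in both lines, by 3.15 in A375 (SE 0.52, limma adjusted p 0.00246) and by 2.80 in WM115 (SE 0.54, limma adjusted p 0.00341). Ordered by group mean, ACAN ran from 32.0 ± 17.7 TPM (SD, n = 4) in A375 R4 clone 4.1, through 22.4 ± 6.74 (SD, n = 3) in WM115 R4 clone 4.1 and 22.1 ± 22.4 (SD, n = 4) in A375 WT, to 0.520 ± 0.250 (SD, n = 4) in WM115 WT. WM115 clone 1.3, R1 clone 1.1 and R1 clone 1.2 came next, with 13.2 ± 5.36 (SD, n = 3), 11 ± 8.68 (SD, n = 5) and 6.70 ± 5.92 TPM (SD, n = 3). A375 R1 clone 1.1, A375 R4 clone 4.2, WM115 R4 clone 4.2 and A375 R1 clone 1.2 followed, with 3.01 ± 2.25 (SD, n = 3), 2.44 ± 0.875 (SD, n = 3), 2.30 ± 0.633 (SD, n = 3) and 1.21 ± 0.415 TPM (SD, n = 4). Neighbours in this order had overlapping libraries, except the last step from A375 R1 clone 1.2 to WM115 WT. The gene table and the sum of the 9 listed ACAN transcripts agreed to within 0.001 TPM, and all 9 transcripts reached 1 TPM in some library.

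Versican rose in 4 of the 5 WM115 clones. WM115 WT libraries had 14.9, 14.7, 9.45 and 6.57 TPM of VCAN. R1 clone 1.1 had 95.1, 39.3, 39.6, 30.3 and 55.6 TPM, a log2 difference of 2.04 (SE 0.35, limma adjusted p 0.00050). R1 clone 1.2 had 50.2, 27.7 and 35.2 TPM, a log2 difference of 1.67 (SE 0.39, limma adjusted p 0.00767). All libraries of both clones lay above all WT libraries.

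In the WM115 R4 clones, VCAN stood at 27.9, 18.3 and 29.1 TPM in clone 4.1 and at 40.7, 18.8 and 37.8 TPM in clone 4.2. The log2 differences were 1.11 (SE 0.39, limma adjusted p 0.0471) and 1.42 (SE 0.39, limma adjusted p 0.0167). Both groups lay above WT, but both calls rested on single libraries. The call in clone 4.1 was lost without any 1 of 10 libraries, at 0.90 to 1.31 and limma adjusted p-values of 0.0508 to 0.141. These were libraries 2, 3 and 5 of R1 clone 1.1, all 3 of clone 4.1, library 3 of clone 4.2, WT libraries 3 and 4 and library 1 of clone 1.3. It was also lost with the mitochondrial share as a term, at 0.96 and a limma adjusted p of 0.159. The call in clone 4.2 was lost without its library 1 or 3 or WT library 4, at 1.21 to 1.28 and limma adjusted p-values of 0.0570 to 0.0760.

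Clone 1.3 had 31.1, 34.9 and 12.8 TPM of VCAN, with library 3 inside the WT range, and a log2 difference of 1.08 (SE 0.39, limma adjusted p 0.240). Without that library the difference was 1.52 and the limma adjusted p 0.0374. Over all single libraries left out the difference ran from 0.83 to 1.52, with limma adjusted p-values up to 0.642. Library 3 of clone 1.3 had 10.63% of its TPM in ribosomal protein genes and 19.41% in mitochondrial genes, while libraries 1 and 2 had 16.42% and 16.79% ribosomal and 10.98% and 8.312% mitochondrial. The WM115 clone library with the lowest ribosomal share was thus also the one with the lowest VCAN.

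VCAN was low in A375, with 2.98, 5.27, 0.78 and 2.04 TPM in WT, and fell further in 1 clone. R1 clone 1.2 had 0.177, 0.159, 0.468 and 0.337 TPM, all below WT, a log2 difference of -1.41 (SE 0.32, limma adjusted p 0.00918). R1 clone 1.1 had 2.82, 5.45 and 1.75 TPM, overlapping WT with library 2 just above it, and was higher than clone 1.2 by 1.67 (SE 0.34, limma adjusted p 0.00418). The R4 clones had 1.29 to 2.31 TPM in clone 4.1 and 1.09 to 2.40 TPM in clone 4.2, and neither was called.

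The isoforms of versican differ in their chondroitin sulfate regions, which are encoded by exon 7 (GAG alpha, chr5:83519349-83522309, 2961 bases) and exon 8 (GAG beta, chr5:83537007-83542268, 5262 bases) of the longest transcript. V0 (VCAN-201) holds both, V1 (VCAN-203) holds only GAG beta, V2 (VCAN-202) only GAG alpha and V3 (VCAN-204) neither, as a check of their GENCODE 29 exons showed. The splice junctions that tell them apart are shown, with 15 bases of the upstream exon in lower case and 15 of the downstream exon in capitals.
Exon 6 to exon 7, in V0 and V2: cctactgctttaaacCTAAAGAGGCTACAA
Exon 6 to exon 8, in V1: cctactgctttaaacGTCGAATGAGTGATT
Exon 6 to exon 9, in V3: cctactgctttaaacGACCTGATCGCTGCA
Exon 8 to exon 9, in V0 and V1: caatctatttaccagGACCTGATCGCTGCA

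V1 was the main one of these 4 isoforms in WM115, and its level followed that of the gene. V1 stood at 6.77, 5.41, 3.28 and 3.23 TPM in WM115 WT, where V0 had 0.142 to 0.627 TPM. In WM115 R1 clone 1.1, V1 stood at 48.3, 21.3, 20.6, 12.4 and 21.7 TPM and V0 at 1.33 to 3.65 TPM. Of the sum of V0 and V1, V1 made up 92.3% in WM115 WT and 89.5% to 91.1% in the 5 WM115 clones, so the ratio of V1 to V0 moved little beside the level. Of all VCAN TPM, V1 made up only 41.0% in WM115 WT and 38.3% to 47.9% in the WM115 clones. VCAN-205 and VCAN-206, which are listed as transcripts with a retained intron, held 26.5% and 15.3% in WM115 WT. Each held 12.4% to 24.0% in the WM115 clones. In A375, V1 made up 31.8% of that sum in WT, at 0.362 TPM against 0.774 TPM of V0. V2 was listed at 0 in all WM115 libraries. V3 reached 5.06 TPM in WM115 and 0.475 TPM in A375. Transcript values are the authors' split of shared reads between isoforms, and no test was run on them.

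**Figure D2:**
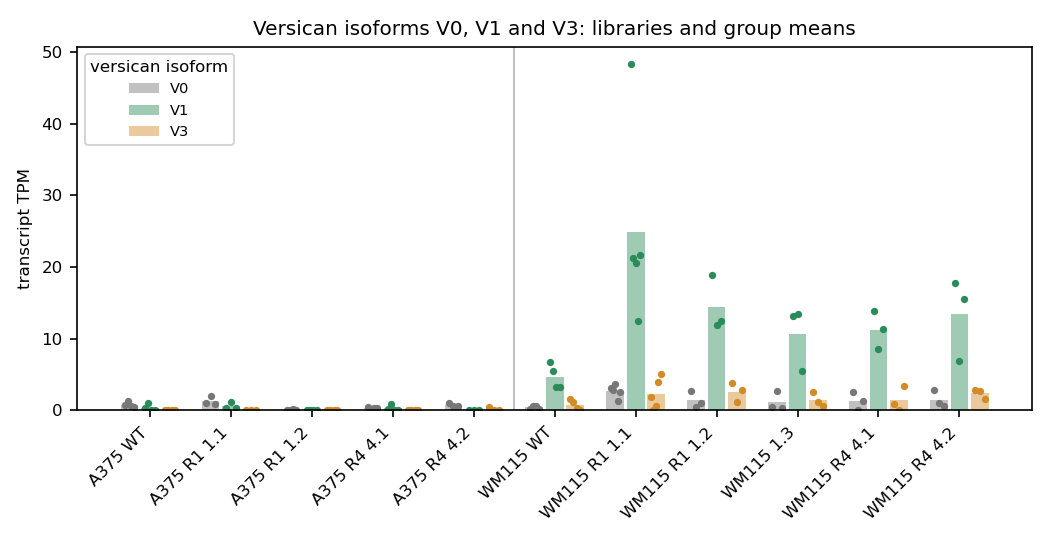
Transcript TPM of versican isoforms V0, V1 and V3, with bars at group means and 1 point per library. V1 leads in every WM115 group, from 3.23 TPM in the lowest WT library to 48.3 TPM in R1 clone 1.1.

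Brevican and neurocan were near the lower limit of the tables. BCAN stood at 0.472 to 2.44 TPM in A375 and 0.305 to 2.19 TPM in WM115, and no clone was called in either line. The antisense genes that overlap BCAN are AL365181.3, with up to 76.3 TPM, and AL590666.2, with up to 93.4 TPM. The counting is not stated to use strand, so the origin of BCAN reads is uncertain. NCAN never exceeded 0.127 TPM, was listed at 0 in 5 of 18 A375 and 14 of 21 WM115 libraries, and passed the filter of 1 TPM in 3 libraries in neither line. HAPLN2 and HAPLN4, which lie beside BCAN and NCAN, reached 0.656 and 0.848 TPM.

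HAPLN1, the link protein first described in cartilage, separated the lines more than any other member tested. A375 WT libraries had 175, 235, 281 and 104 TPM, and WM115 WT libraries had 4.81, 2.01, 0.570 and 0.316 TPM. The log2 difference between the lines was 6.26 (SE 0.47, limma adjusted p 5.56e-06). VCAN, its neighbour on chromosome 5, had the opposite order, with a log2 difference of -1.80 for A375 against WM115 (SE 0.38, limma adjusted p 0.00347).

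In A375 R1 clone 1.2, HAPLN1 fell to 44.5, 40.1, 59.0 and 39.3 TPM, all below WT, a log2 difference of -2.02 (SE 0.58, limma adjusted p 0.0376). The call was lost without any 1 of the 4 libraries of clone 1.2 or of WT libraries 1, 2 and 3, at -2.15 to -1.83 and limma adjusted p-values of 0.0633 to 0.123, and without the filter on low values, at 0.0791. R1 clone 1.1 had 158, 41.9 and 9.71 TPM, a log2 difference of -2.16 (SE 0.62, limma adjusted p 0.132). Without library 1, which lay within the WT range, the difference in clone 1.1 was -3.13 and the limma adjusted p 0.00458. With single libraries left out the difference in clone 1.1 ran from -3.13 to -1.18, with limma adjusted p-values up to 0.557. R4 clone 4.2 had 147, 79.4 and 40.1 TPM and R4 clone 4.1 had 289, 256, 326 and 193 TPM, and neither was called.

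In WM115 no clone was called for HAPLN1. Its levels were 0.045 to 0.858 TPM in R1 clone 1.1 and 0 to 0.978 TPM in R1 clone 1.2, against 0.849 to 2.17 TPM in R4 clone 4.1 and 0.218 to 3.18 TPM in R4 clone 4.2.

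HAPLN3, a link protein of wider tissue range, varied little between libraries of a group and had the same order against WT as ACAN in A375. A375 WT libraries had 17.6, 18.9, 20.0 and 16.2 TPM. R1 clone 1.1 had 16.0, 12.9 and 8.91 TPM, R1 clone 1.2 had 8.46, 11.2, 9.46 and 7.08 TPM, and R4 clone 4.2 had 15.2, 13.8 and 9.97 TPM. All 10 of these libraries lay below WT, while R4 clone 4.1, with 30.5, 32.6, 22.4 and 29 TPM, lay above it. The same 10 libraries lay below WT for ACAN.

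The log2 differences of HAPLN3 in A375 were -0.53 in R1 clone 1.1 (SE 0.20, limma adjusted p 0.330), -0.95 in R1 clone 1.2 (SE 0.18, limma adjusted p 0.00342), 0.62 in R4 clone 4.1 (SE 0.18, limma adjusted p 0.139) and -0.47 in R4 clone 4.2 (SE 0.20, limma adjusted p 0.606). None reached the minimum size of 1 that a call needs. In R1 clone 1.2 the difference passed that size without its library 2, at -1.04 and a limma adjusted p of 0.00311. It passed too with a pseudocount of 0.1 (-1.01), median-of-ratios scaling (-1.01) and quantile normalization (-1.09), at limma adjusted p-values of 0.00375, 0.00309 and 0.00135. R4 clone 4.1 was higher than R4 clone 4.2 by 1.09 (SE 0.20, limma adjusted p 0.00593), a call that was lost without library 3 of clone 4.2, at 0.92 and a limma adjusted p of 0.0604. The order differed in WM115, where 10 of 17 clone libraries had less HAPLN3 than the WT range of 20.2 to 29.1 TPM, 1 had more and all 17 had more ACAN. Its log2 differences were -0.59 in R1 clone 1.1 (SE 0.16, limma adjusted p 0.0163) and -0.46 in R1 clone 1.2 (SE 0.19, limma adjusted p 0.0810).

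**Figure D3:**
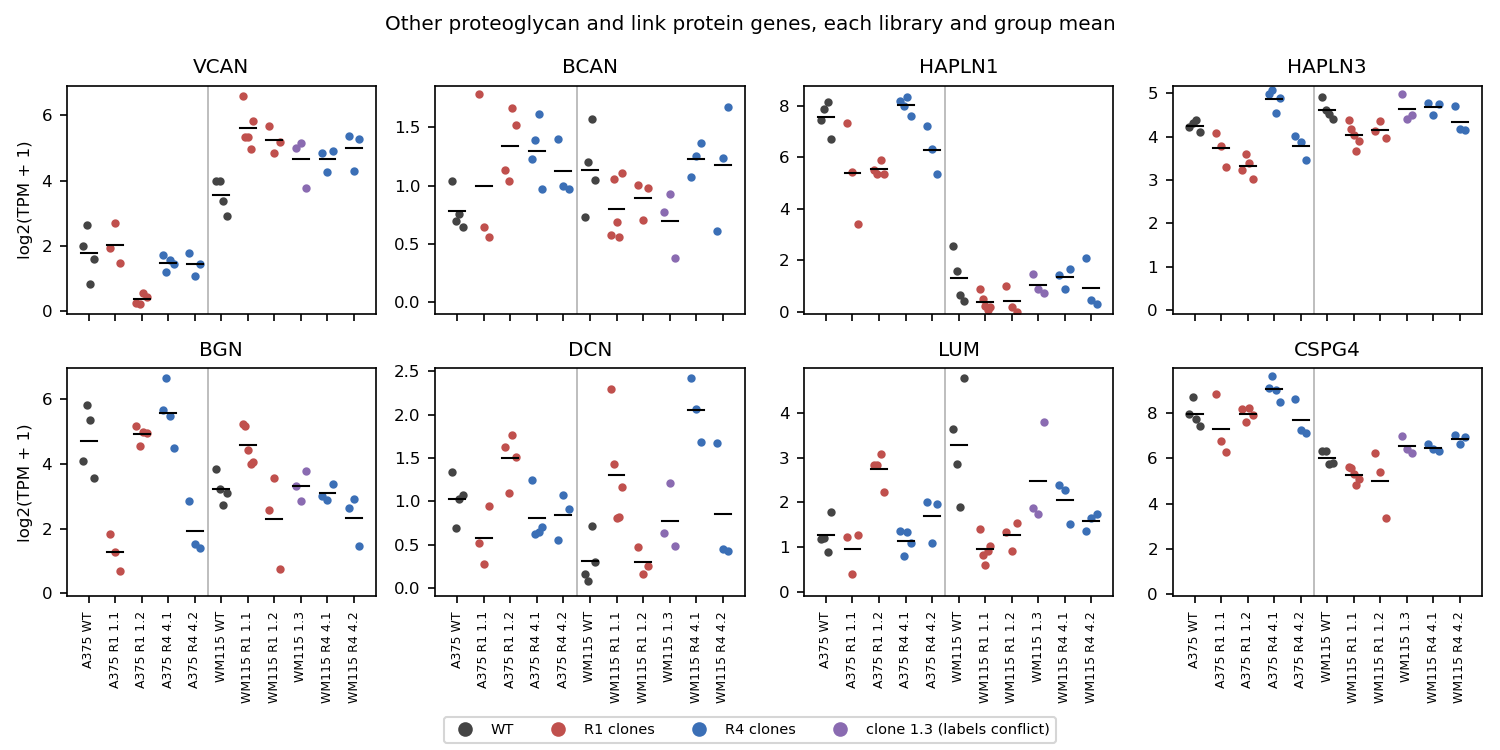
log2(TPM + 1) of the other members except NCAN, with 1 point per library and a bar at each group mean. VCAN is higher in all WM115 groups than in A375, HAPLN1 is high in A375 and at most 4.81 TPM in WM115, and HAPLN3 falls within a narrow range in both lines.

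Biglycan differed between clones of the same region in 3 of the 4 such comparisons, all but the WM115 R4 clones. A375 WT libraries had 16.1, 55.2, 40.1 and 10.9 TPM of BGN. R1 clone 1.1 fell to 2.58, 1.40 and 0.605 TPM, a log2 difference of -3.45 (SE 0.53, limma adjusted p 0.00255), while R1 clone 1.2 had 35.2, 22.3, 30.9 and 29.8 TPM, within the WT range. The difference between these clones was -3.65 (SE 0.53, limma adjusted p 0.000238). With only clone 1.1 and WT fitted, the limma adjusted p was 0.0808.

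R4 clone 4.2 of A375 fell to 6.21, 1.90 and 1.66 TPM of BGN, a log2 difference of -2.78 (SE 0.53, limma adjusted p 0.0176). R4 clone 4.1 had 50.1, 100, 43.8 and 21.3 TPM, and was higher than clone 4.2 by 3.64 (SE 0.53, limma adjusted p 0.000939). The fall in clone 4.2 lost its call without library 2 or 3 of that clone or WT library 2 or 3, at -2.58 to -2.41 and limma adjusted p-values of 0.0620 to 0.153. It was lost too with only the 2 groups fitted, at a limma adjusted p of 0.194, and without the filter on low values, at 0.0541.

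In WM115, WT libraries had 13.3, 8.35, 5.59 and 7.55 TPM of BGN and R1 clone 1.1 had 36.7, 35.5, 20.7, 15.1 and 15.8 TPM, all above WT. The log2 difference was 1.37 (SE 0.44, limma adjusted p 0.0325). The call was lost without library 1, 2 or 3 of clone 1.1 or WT library 2, 3 or 4, at 1.2 to 1.41 and limma adjusted p-values of 0.0522 to 0.0805. It was also lost with the mitochondrial share as a term, at 1.1 and a limma adjusted p of 0.149, with a pseudocount of 0.1, at 0.0671, and without the filter, at 0.0753. R1 clone 1.2 had 5.02, 10.9 and 0.690 TPM, lower than clone 1.1 by 2.28 (SE 0.48, limma adjusted p 0.00143). HAUS7 overlaps BGN on the opposite strand with up to 38 TPM.

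Decorin was rare in both lines, yet was called higher than WT in 1 clone. WM115 WT libraries had 0.119, 0.058, 0.634 and 0.230 TPM of DCN, and R4 clone 4.1 had 4.34, 3.19 and 2.21 TPM, a log2 difference of 1.74 (SE 0.34, limma adjusted p 0.00152). R1 clone 1.1 had 3.92, 1.69, 0.743, 0.765 and 1.24 TPM, also all above WT. Its log2 difference of 0.99 (SE 0.30, limma adjusted p 0.0241) was just under the minimum size. It passed with a pseudocount of 0.1, at 2.29 and a limma adjusted p of 0.00881, with median-of-ratios scaling, at 1.03, and with quantile normalization, at 1.19. It passed as well without library 3, 4 or 5 of that clone or WT library 3, at 1.02 to 1.12. Over all single libraries left out it ran from 0.74 to 1.12, with limma adjusted p-values up to 0.0724. R1 clone 1.2 had 0.389, 0.114 and 0.191 TPM, lower than clone 1.1 by 1.01 (SE 0.33, limma adjusted p 0.0222). That call was lost without library 1 or 2 of clone 1.1 or library 2 or 3 of clone 1.2, at 0.76 to 0.99. It was also lost with the mitochondrial share as a term, at 0.58 and a limma adjusted p of 0.164. In A375 DCN stayed between 0.212 and 2.39 TPM, and no clone was called against WT.

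Lumican, the neighbour of DCN, was called lower in 3 WM115 clones, and the clone in which DCN was called was not among them. This holds for calls only. LUM was lower without a call in R4 clone 4.1 (-1.24), and DCN was higher without a call in R1 clone 1.1 (0.99), where LUM fell. WT libraries had 11.4, 6.27, 2.73 and 26.4 TPM of LUM. R1 clone 1.1 fell to 0.529 to 1.66 TPM, with a median of 0.874 TPM, a log2 difference of -2.34 (SE 0.45, limma adjusted p 0.00146). R1 clone 1.2 fell to 1.54, 0.892 and 1.93 TPM, a log2 difference of -2.02 (SE 0.51, limma adjusted p 0.0110) that did not pass with only the 2 groups fitted, at a limma adjusted p of 0.0739.

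R4 clone 4.2 of WM115 fell to 1.56, 2.16 and 2.33 TPM of LUM, a log2 difference of -1.71 (SE 0.51, limma adjusted p 0.0250). This call was lost without library 1 or 2 of clone 4.2 or WT library 1 or 4, at -1.75 to -1.22 and limma adjusted p-values of 0.0658 to 0.0837, with only the 2 groups fitted, at 0.0800, and without the filter, at 0.0622. R4 clone 4.1 had 4.24, 3.85 and 1.85 TPM, a log2 difference of -1.24 (SE 0.51, limma adjusted p 0.0876). It passed without WT library 3 or library 3 of clone 1.3, at -1.7 to -1.24 and limma adjusted p-values of 0.0143 to 0.0458. Over all single libraries left out it ran from -1.7 to -0.74, with limma adjusted p-values up to 0.279. Clone 1.3 had 2.69, 2.36 and 12.9 TPM, and its library 3, the one with the WT-like ribosomal share, lay within the WT range.

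In A375, LUM rose in R1 clone 1.2 to 6.17, 6.09, 7.45 and 3.68 TPM, against 1.28, 1.3, 0.845 and 2.47 TPM in WT. The log2 difference was 1.48 (SE 0.27, limma adjusted p 0.00199). R1 clone 1.1 had 1.34, 0.316 and 1.40 TPM, lower than clone 1.2 by 1.78 (SE 0.29, limma adjusted p 0.000666). Decorin and lumican are also expressed by fibroblasts. The 7 fibroblast markers summed to 9.07 to 16.2 TPM in A375 R1 clone 1.2 and 5.45 to 14 TPM in A375 WT, of which PDGFRB gave 2.92 to 10.2 TPM over the line. COL1A1, PDGFRA and FAP reached 4.55, 3.34 and 2.37 TPM in A375, and COL1A2, THY1 and COL3A1 reached 0.345, 0.329 and 0.048 TPM. In WM115 the 7 markers summed to 402 to 895 TPM, of which COL1A2 gave 365 to 857 TPM. FAP stood at 2.59 to 73.3 TPM there, THY1 and PDGFRB reached 18.8 and 11.4 TPM, and COL3A1, PDGFRA and COL1A1 reached 3.67, 2.81 and 2.43 TPM. The sums in WM115 were 488 to 712 TPM in WT, 585 to 895 TPM in R1 clone 1.1 and 505 to 884 TPM in R1 clone 1.2, and the part of other cells in the LUM values was not tested.

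CSPG4 had the highest mean of the members in the WT cells of both lines, with 251, 423, 210 and 171 TPM in A375 WT and 78.3, 78.4, 52.4 and 53.9 TPM in WM115 WT. Between the lines its log2 difference was 1.93 (SE 0.27, limma adjusted p 0.000321). In A375 R4 clone 4.1, CSPG4 stood at 549, 805, 515 and 353 TPM, with 3 libraries above all of WT, a log2 difference of 1.1 (SE 0.46, limma adjusted p 0.377). Pairing of this clone with WT by replicate number was inferred from these same data, after all clones had been searched for it. Deviations from the group means correlated at 0.326 to 0.776 across genes between libraries of equal number. What the pairs share is not known, and the paired fit below depends on this choice. With only these 2 groups fitted the limma adjusted p was 0.223. With only these groups and the replicate number as a block, the same difference of 1.1 had an SE of 0.07 and a limma adjusted p of 0.00095, which made it a call. In that paired fit 1.45% of the 16692 genes were called, and CSPG4 was the 1 member called. BGN and HAPLN3 were also under 0.05 in the paired fit, at limma adjusted p-values of 0.0412 and 0.0243, with differences of 0.86 and 0.62 that were under the minimum size.

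R1 clone 1.1 of A375 had 450, 109 and 77.3 TPM of CSPG4, R1 clone 1.2 had 286, 191, 296 and 243 TPM and R4 clone 4.2 had 396, 152 and 139 TPM, and none was called. Library 1 of clone 1.1, high for CSPG4, was also the highest of its group for ACAN, HAPLN1, HAPLN3, BCAN and BGN. In WM115, R1 clone 1.1 had 48.6, 46.6, 38.4, 27.1 and 32.7 TPM, all below WT, and R1 clone 1.2 had 75.0, 41.1 and 9.21 TPM. The last value came from library 3, in which SOX10 stood at 9.56 TPM. The log2 difference in clone 1.2 was -1.04 (SE 0.42, limma adjusted p 0.0849), and without library 1 it was -1.66 with a limma adjusted p of 0.00655. With single libraries left out it ran from -1.66 to -0.21, with limma adjusted p-values up to 0.675. WM115 R4 clone 4.1 had 97.7, 84.9 and 79.8 TPM and R4 clone 4.2 had 128, 99.2 and 122 TPM, all above WT, and neither was called. AC105020.4, an antisense gene, overlaps CSPG4 on the opposite strand with up to 23.4 TPM, and the 9 listed CSPG4 pseudogenes reached at most 3.92 TPM.

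Counted over each line, 5 of 32 tested pairs of a member and a clone were called against WT in A375, 1 higher and 4 lower. WM115 had 9 of 40, 6 higher and 3 lower. NCAN was left out by the filter, and ACAN had no test. In A375, 1 of 8 members tested was called in R1 clone 1.1, beside 0.731% of the 16692 genes tested. R1 clone 1.2 had 3 of 8 members, beside 4.01% of genes. R4 clone 4.1 had 0 of 8 by limma, beside 0.653%, with 1758 of all genes and, of the members, only CSPG4 and HAPLN3 at an unadjusted p under 0.05. R4 clone 4.2 had 1 of 8, beside 0.473%. In WM115, 3 of 8 members were called in R1 clone 1.1, beside 4.88% of the 16997 genes tested, and 2 of 8 in R1 clone 1.2, beside 7.61%. R4 clone 4.1 had 2 of 8 members, beside 7.57%, and R4 clone 4.2 had 2 of 8, beside 6.6%. Clone 1.3 had 0 of 8 by limma, beside 0.618%, with 2212 of all genes and, of the members, only VCAN at an unadjusted p under 0.05.

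The median log2 difference of the members tested lay between -0.49 in A375 R1 clone 1.1 and 0.5 in A375 R4 clone 4.1, and between -0.68 in WM115 R1 clone 1.2 and 0.08 in WM115 R4 clone 4.1. The median over all genes lay between -0.12 and 0.07 in these comparisons. Counts in different clones are not independent, since each is set against the same WT libraries. Between clones of 1 region, 3 of 8 members were called for A375 1.1 against 1.2, beside 6.16% of genes, and 3 of 9 for A375 4.1 against 4.2, beside 2.23%. In WM115, 2 of 8 were called for 1.1 against 1.2, beside 11.8%, and 1 of 9 for 4.1 against 4.2, beside 2.63%. The counts out of 9 include ACAN, which gave the set its pattern and was called in both lines. In WM115 it was the 1 member called. These comparisons of ACAN were added after its values had been seen, so its calls add no support to the counts.

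**Figure D4:**
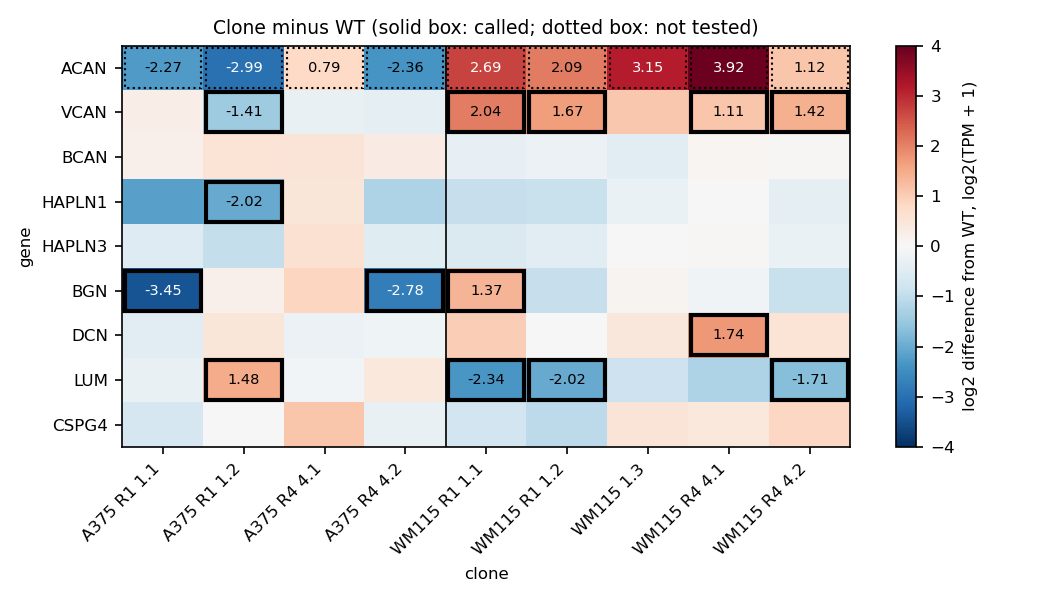
Log2 difference from WT of 9 members in the 9 clones, with blue for lower and red for higher. Solid boxes mark the 5 calls in A375 and the 9 in WM115, dotted boxes mark ACAN, which was not tested, and values are printed in boxes only.

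Between the WT cells of the lines, 5 of 8 members tested were called, beside 22.7% of the 16126 genes tested. HAPLN1, CSPG4 and BGN were higher in A375, and VCAN and LUM in WM115. BGN was higher in A375 by 1.49 (SE 0.46, limma adjusted p 0.0235), a call that was lost without A375 WT library 3 or WM115 WT library 2, 3 or 4, at 1.27 to 1.49 and limma adjusted p-values of 0.0515 to 0.0710. LUM differed by -2.03 (SE 0.52, limma adjusted p 0.00920).

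A deletion is repeated only by clones, so R1 was also compared with R4 over the means of 8 clones, with the line as a covariate. In this comparison 0 of 8 members were called by limma, beside 0% of the 18662 genes tested. Of all genes, 767 had an unadjusted p under 0.05. Among the members these were CSPG4, at -1.13 (SE 0.33, unadjusted p 0.00815), HAPLN1, at -1.23 (SE 0.38, unadjusted p 0.0108), and HAPLN3, at -0.61 (SE 0.25, unadjusted p 0.0398), all lower in R1 clones and all with a limma adjusted p of 0.981. An interaction of region and line gave a limma adjusted p of 1 for every member tested.

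The genes whose group means followed ACAN most closely were the lincRNA AC103982.1 (Pearson r 0.885 over 11 group means of log2(TPM + 1)), PROX1-AS1 (0.860), CEROX1 (0.803), AGAP2 (0.800) and SOX8 (0.780), out of 9204 genes that passed the filter in both lines and ranged by at least 1. These values describe 11 means that share their WT and depth, and carry no p. The 5 genes were picked for this likeness out of 9204, so their agreement with ACAN is no separate support. Of the members, HAPLN3 had an r of 0.569 with ACAN, BGN 0.446, DCN 0.375 and LUM -0.45. AC103982.1 lies on the minus strand of chromosome 15 from 88797413 to 88798734, 4.7 kb before ACAN. It stood at 2.36 ± 0.351 TPM in A375 WT (SD, n = 4), 0.609 ± 0.408 in A375 R1 clone 1.1 (SD, n = 3) and 0.835 ± 0.374 in A375 R1 clone 1.2 (SD, n = 4). In WM115 it stood at 0.548 ± 0.383 TPM in WT (SD, n = 4), 1.61 ± 0.564 in R1 clone 1.1 (SD, n = 5), 2.73 ± 0.922 in R1 clone 1.2 (SD, n = 3) and 4.30 ± 1.06 in R4 clone 4.1 (SD, n = 3).

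SOX8, a SOX factor of the same subgroup as SOX10, was listed at 0 in all 4 libraries of A375 R1 clone 1.2 and stood at 1.90 to 4.44 TPM in A375 WT. In WM115 it stood at 0.041 to 0.150 TPM in WT, 4.52 to 6.33 TPM in R1 clone 1.1 and 12.1 to 16.7 TPM in R4 clone 4.1. CEROX1, a long noncoding RNA on chromosome 16, lies 0.2 kb from SOX8, so these 2 places in the order are not separate. SOX9, which drives ACAN in cartilage, was listed at 0 in all 4 WM115 WT libraries and all 5 of WM115 R1 clone 1.1, in which ACAN stood at 3.62 to 24.3 TPM. SOX9 was highest in WM115 R1 clone 1.2, at 5.27 to 18.1 TPM. In A375 R1 clone 1.2, where ACAN was lower than WT, SOX9 stood at 1.37 to 2.51 TPM, against 0.093 to 0.227 TPM in A375 WT. The part of SOX9 in the ACAN values was not tested.

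**Figure D5:**
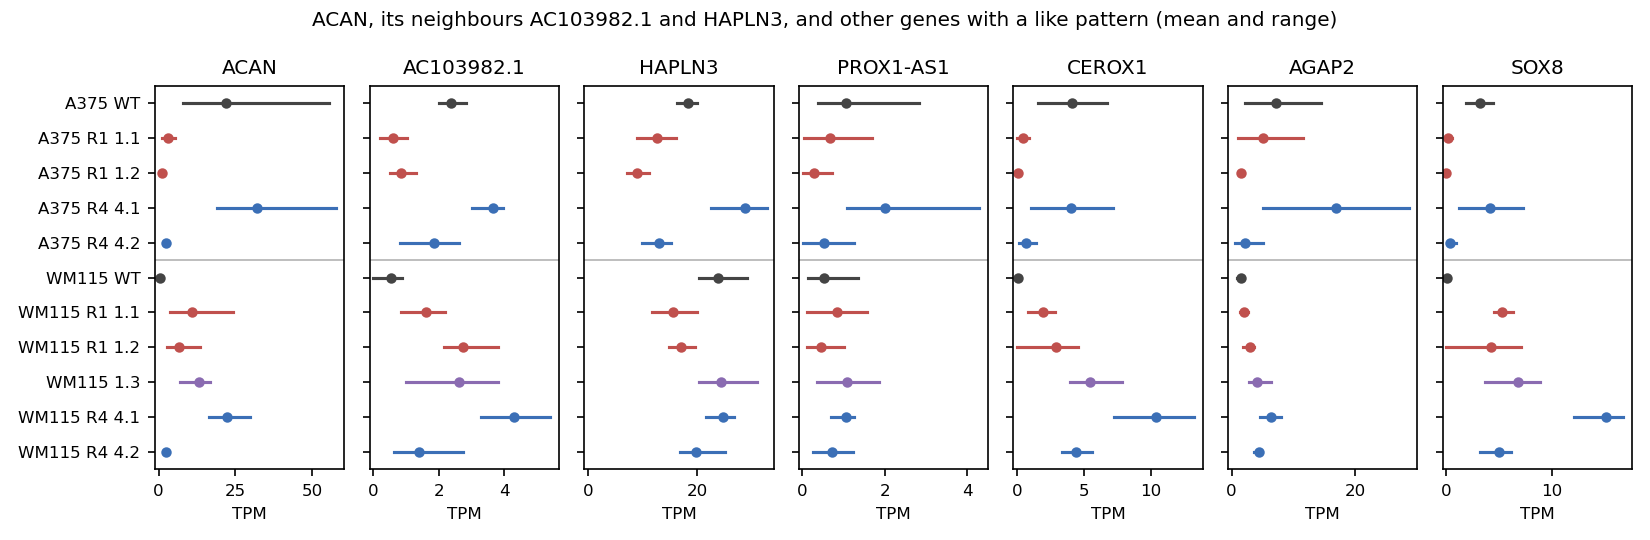
TPM of ACAN, its neighbours AC103982.1 and HAPLN3, and the 4 other genes most like ACAN, as the mean (point) and range (line) of each group. AC103982.1 and SOX8, which were picked for their likeness to ACAN, are high in WM115 R4 clone 4.1 and low in WM115 WT, as ACAN is.

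The protein-coding genes starting within 250 kb of the ACAN start are AEN, ISG20, HAPLN3 and MFGE8. Of these, 1 was called in 1 clone: ISG20, an interferon-induced nuclease, fell in WM115 R1 clone 1.1 (-1.13, SE 0.18, limma adjusted p 0.000268), where ACAN was higher. The median log2 difference over the genes of chromosome 15 was -0.39 in WM115 R1 clone 1.1 and 0.18 in A375 R4 clone 4.1, and within 0.11 of 0 in the other 7 clones. In WM115 R1 clone 1.1 the median over all genes was -0.12. ACAN, HAPLN3 and CSPG4 lie on this chromosome, and the part of this shift in their values was not tested.

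Companion lists covered the other genes of the pathway, 99 genes in 8 lists. In A375, 63 of them were tested and 8 of 252 pairs of a gene and a clone were called, 2 higher and 6 lower, which is 3.17% of pairs beside 1.47% over all genes. In WM115, 65 were tested and 43 of 325 pairs were called, 23 higher and 20 lower, which is 13.2% of pairs beside 5.45% over all genes. No gene of these lists passed in the same direction in both clones of an A375 region, while 7 did so in WM115. Over all genes, 0.174% passed in both R1 clones and 0.15% in both R4 clones of A375, against 0.988% and 3.22% in WM115. Counts of single lists are to be read beside these shares.

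Of 13 genes that make, bind or degrade hyaluronan, the partner of the lecticans, 8 were tested in A375, with 0 called pairs, and 10 in WM115, with 3 higher and 3 lower. CEMIP, a hyaluronan-degrading protein, rose in both WM115 R4 clones from 9.89 ± 5.07 TPM (SD, n = 4) to 34.7 ± 5.93 (SD, n = 3) in clone 4.1 and 53.0 ± 11.9 (SD, n = 3) in clone 4.2. The log2 differences were 1.84 and 2.43 (limma adjusted p 0.00569 and 0.00115). It rose in R1 clone 1.2 too, by 1.62 (limma adjusted p 0.0147). HYAL1, a hyaluronidase, fell in the same clones from 9.55 ± 5.87 TPM (SD, n = 4) to 0.741 ± 0.323 (SD, n = 3) and 0.606 ± 0.108 (SD, n = 3). Its log2 differences were -2.41 and -2.51 (limma adjusted p 0.00142 and 0.0015), and it fell in R1 clone 1.1 too (-1.93, limma adjusted p 0.00293). The median difference of this list lay between -0.25 and 0.34 in WM115.

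Of 22 genes of chondroitin sulfate synthesis, 20 were tested in A375, with 1 higher and 1 lower, and 19 in WM115, with 4 higher and 5 lower. CHST11, a chondroitin 4-sulfotransferase, fell in both WM115 R1 clones, from 108 ± 28.3 TPM (SD, n = 4) to 40.1 ± 4.45 (SD, n = 5) and 44.3 ± 8.59 (SD, n = 3). The log2 differences were -1.38 and -1.25 (limma adjusted p 0.00134 and 0.00815). CHST11 fell by a like amount in R4 clone 4.2 (-1.37, limma adjusted p 0.00411). The list median lay between -0.05 and 0.12 in WM115 and between -0.03 and 0.08 in A375.

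Of 14 carriers of heparan sulfate, 12 were tested in A375, with 2 lower, and 13 in WM115, with 3 higher and 5 lower. GPC4, a glypican of the cell surface, fell in both WM115 R4 clones from 3.23 ± 0.695 TPM (SD, n = 4) to 0.992 ± 0.153 (SD, n = 3) and 0.0297 ± 0.0191 (SD, n = 3), by -1.07 and -2.02 on the log2 scale (limma adjusted p 9.37e-05 and 2.25e-07). GPC4 fell in WM115 R1 clone 1.1 (-2.05, limma adjusted p 6.23e-09) and in A375 R1 clone 1.2 (-1.01, limma adjusted p 0.0211) as well. Of 10 other link proteins and chondroitin sulfate carriers, 6 were tested in A375, with 0 called pairs, and 4 in WM115, with 4 higher and 1 lower. SPOCK1, a secreted proteoglycan, rose in both WM115 R1 clones from 5.24 ± 2.40 TPM (SD, n = 4) to 21.5 ± 8.10 (SD, n = 5) and 120 ± 111 (SD, n = 3). The log2 differences were 1.89 and 4.0 (limma adjusted p 0.0263 and 0.000748). SPOCK1 also stood at 18.6 to 20.7 TPM in R4 clone 4.1 and 6.3 to 10.3 TPM in R4 clone 4.2, against 2.19 to 7.78 TPM in WT, and neither was called.

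Of 14 other small leucine-rich proteoglycans, 2 were tested in A375, with 0 called pairs, and 3 in WM115, with 3 higher: FMOD in R1 clone 1.1 and R4 clone 4.1, and PRELP in R1 clone 1.1. Of 7 lectican-cleaving proteases, 4 were tested in A375, with 2 lower, and 3 in WM115, with 1 lower. Of 5 lectican ligands, 3 were tested in each line. FBLN1, a fibulin that binds lecticans, rose in both WM115 R4 clones from 31.9 ± 13.2 TPM (SD, n = 4) to 305 ± 69.7 (SD, n = 3) and 127 ± 48.7 (SD, n = 3), by 3.28 and 1.97 on the log2 scale (limma adjusted p 6.13e-05 and 0.005). Of 14 cartilage genes, 8 were tested in A375, with 1 higher and 1 lower, and 10 in WM115, with 4 higher and 5 lower. COL9A1, a cartilage collagen chain, fell in both WM115 R1 clones from 3.85 ± 2.12 TPM (SD, n = 4) to 0.340 ± 0.220 (SD, n = 5) and 0.998 ± 0.961 (SD, n = 3), by -1.76 and -1.31 (limma adjusted p 0.003 and 0.0357). ACAN was higher than WT in the same clones.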

How the data were processed

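Polyadenylated RNA was sequenced, per the labels' protocols, and the submitters' processing notes name DRAGEN and GRCh38. The authors deposited gene-level and transcript-level TPM. The annotation, counting rule and use of strand are not given in the sources used here. Without counts, read depth is unknown, no counting interval was computed, and a value of 0 is given as listed at 0. The 6 columns of each table that matched no sample were not used. The 200 repeated gene lines are copies and were used once.

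limma 3.58.1 (R 4.3.3) was run per line on log2(TPM + 1), with 1 coefficient per group, a variance trend and two-sided tests. Genes had at least 1 TPM in at least 3 libraries of the line. P-values were adjusted by Benjamini-Hochberg over all genes tested. The fit was tested on simulated data. Positions and transcripts are from GENCODE 29, and promoters from RefSeq (GRCh38.p14).

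The members, companion lists and tests were chosen with earlier results of these data known. ACAN against WT in R4 clones and clone 1.3 was planned as a test and is given without one, because its WT values chose the set. All members are named. From each list and line, up to 3 genes with the largest mean difference are named among those that passed in the same direction in both clones of a region. The 5 genes most like ACAN and its protein-coding neighbours are named too, and SOX9 and library values outside these rules were chosen after they were seen. Paired libraries were looked for by correlating deviations from group means between equal replicate numbers. Only A375 R4 clone 4.1 and WT had all pairs over 0.1, at 0.326 to 0.776 in 4 pairs. The alternatives tried were no filter or one at 5 TPM on average, a pseudocount of 0.1, 2 other scalings, no variance trend, no minimum difference, only 2 groups fitted, the replicate block with only 2 groups fitted, the mitochondrial share (divided at 2.5% in A375 and 7.5% in WM115) as a term, and leaving out each library or clone.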

Additional observations from a re-analysis of the deposited data

Results flagged for a closer look

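In 50 groups of a member with 4 or 5 libraries, 4 had 1 library far from the others. The rule flags about 1 in 20 by chance for normally spread values. TPM values near 0, such as those of NCAN, are not so spread, so this rate does not apply to them. ACAN stood at 55.5 TPM in library 2 of A375 WT, while the other 3 had 7.8 to 13.5 TPM. DCN stood at 1.37 TPM in library 1 of A375 R4 clone 4.1, while the other 3 had 0.534 to 0.632 TPM. NCAN stood at 0.127 TPM in library 3 of WM115 WT, where the other 3 had at most 0.007 TPM, and at 0.015 TPM in library 2 of WM115 R1 clone 1.1, where the other 4 are listed at 0.

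ACAN was lower than WT in every A375 R1 library and higher than WT in every WM115 R1 library, with mean differences in log2(TPM + 1) of -2.68 and 2.46. The difference between the lines was not tested, because this pattern chose the set.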

How the results depend on the processing

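The count of called pairs of a member and a clone in A375 was 5. It was 3 with a filter at a mean of 5 TPM, 3 without a filter and 3 with only the 2 groups fitted, and it ran from 3 to 6 with single libraries left out, at 3 without WT library 2 or 3. In WM115 the count was 9. It was 5 with a filter at a mean of 5 TPM, which tests fewer members, and ran from 5 to 11 with single libraries left out, at 5 without WT library 4. The other causes were not tested. With the replicate block and only the 2 groups fitted, the counts were 2 in A375 and 3 in WM115, beside 3 and 7 with only the 2 groups fitted and no block. Outside A375 R4 clone 4.1 the correlations gave no ground for pairing libraries by replicate number. ACAN against WT in R4 clones and clone 1.3, which the plan would have tested, is left out of all these counts. Without WM115 R1 clone 1.2 library 3 the WM115 count stayed at 9. The 5 members called between WT cells became 4 to 6, and the 0 called between R1 and R4 stayed 0 under all 17 alternatives, including clone 1.3 counted to either region. The differences recomputed were 65 of members, namely those of ACAN and those with an unadjusted p under 0.05, and none of these changed sign. Differences of companion genes and of ISG20 were not recomputed. Of the 28 called among the 65, 13 stayed called under every alternative. Depth is unknown, so values under 1 TPM are the least certain.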
